A study of Mus musculus with 36 samples.

Results

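CTCF and MBD3 were located across the Hoxb cluster of mouse embryonic stem cells on days 0, 2, 4 and 6. All peaks of the 8 deposited lists were taken that overlapped chromosome 11 from 96194316 to 96368254 (mm10), from the outer end of Hoxb13 to the outer end of Hoxb1, or the 100 kb on either side. Peaks that overlapped by 1 bp or more were joined, which gave 32 sites of the 56192 in all lists. They hold 30 of the 53682 CTCF sites and 14 of the 18378 MBD3 sites, and 12 of the 14 MBD3 sites lay on a CTCF site. A site is named by the position of its summit in kb from the outer end of Hoxb13, so that the cluster runs from 0.0 to 173.9 kb and negative positions lie beyond Hoxb13. Of the 30 CTCF sites, 16 lay in the cluster, 9 on the Hoxb13 side and 5 on the Hoxb1 side.

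The samples are 36 chromatin libraries in 12 groups of 3, with antibody to CTCF, antibody to MBD3 or input chromatin, each on days 0, 2, 4 and 6. The labels name the cells only as mouse embryonic stem cells, cultured with leukaemia inhibitory factor over irradiated fibroblast feeders, and the names of the lists mark them as wild type. What was done between day 0 and day 6, the strain, the clone and the share of feeder chromatin are not given in the sources used here. The authors called peaks on the 3 replicates of a group together, so each site has 1 value per antibody and day, with no spread between replicates and no test between days. A place without a peak has no value in a list, which is not a measurement of 0.

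Hox genes encode homeodomain transcription factors that give cells their position along the body axis. They lie in clusters and are switched on in the order in which they lie, from Hoxb1, a hindbrain gene, towards Hoxb13, a gene of the hindmost body. In embryonic stem cells the clusters are largely silent under Polycomb, and CTCF, a zinc finger protein that halts cohesin at the borders of chromatin loops, divides them into stretches. MBD3 is a subunit of NuRD, a complex that moves nucleosomes and removes acetyl groups from histones.

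One site of the window falls on a start site with a sequence in the reference tables, and it is shown because it carried CTCF on all 4 days and MBD3 on days 0, 4 and 6. It is the -60.6 kb site, inside Ttll6, a tubulin polyglutamylase gene next to Hoxb13. RefSeq (GRCm38.p6, the assembly of mm10) gives the 250 bases before and 50 after a Ttll6 start at position 96133786, which lies 9329 bp inside the gene's outer end. Capitals mark matches to a reduced form of the core of the CTCF motif, searched on both strands, which reads CC, any 3 bases, AG, any 2 bases and GGC.
Ttll6 start, chr11:96133536-96133835, plus strand: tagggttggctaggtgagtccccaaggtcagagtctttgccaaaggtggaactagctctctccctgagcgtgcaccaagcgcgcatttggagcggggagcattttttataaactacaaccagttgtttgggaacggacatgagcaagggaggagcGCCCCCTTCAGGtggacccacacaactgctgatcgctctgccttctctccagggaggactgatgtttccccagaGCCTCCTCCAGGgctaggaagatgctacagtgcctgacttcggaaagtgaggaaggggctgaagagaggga
Both matches lie on the minus strand and do not overlap. The first, at bases 156 to 167, held the CTCF summits of days 4 and 6 and the MBD3 summit of day 0. The CTCF summits of days 0 and 2 lay 2 and 6 bp from it, and the MBD3 summits of days 6 and 4 lay 1 and 23 bp from it. The other match, at bases 230 to 241, was 57 to 68 bp from the CTCF summits. These letters occur in 8.61% of 32817 promoter windows of this length. Of the windows with a CTCF summit on days 0, 2, 4 and 6, 31.3%, 44.4%, 41.6% and 40.9% held them. Of the 10 Hoxb genes, 3 have a promoter window in the table (Hoxb8, Hoxb4 and Hoxb1), and those windows overlapped no peak of any list.

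The window held 28, 16, 21 and 23 CTCF peaks on days 0, 2, 4 and 6, of which 16, 8, 11 and 11 lay in the cluster. Of the 30 CTCF sites, 16 (53.3%) were found on all 4 days, where 47.3% of all CTCF sites were. Another 4 (13.3%) were found on days 0, 4 and 6 and missing on day 2, against 11.4% of all CTCF sites. A further 6 (20.0%) were found on day 0 only, against 20.6%, and 2 (6.67%) on day 6 only, against 3.88%. These shares are near those of the whole lists. With day 2 not looked at, 20 of 30 (66.7%) were found on days 0, 4 and 6, against 58.7%. The remaining sites were at -33.7 kb, found on days 0 and 6, and at 231.1 kb, found on days 0 and 4.

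**Figure D1:**
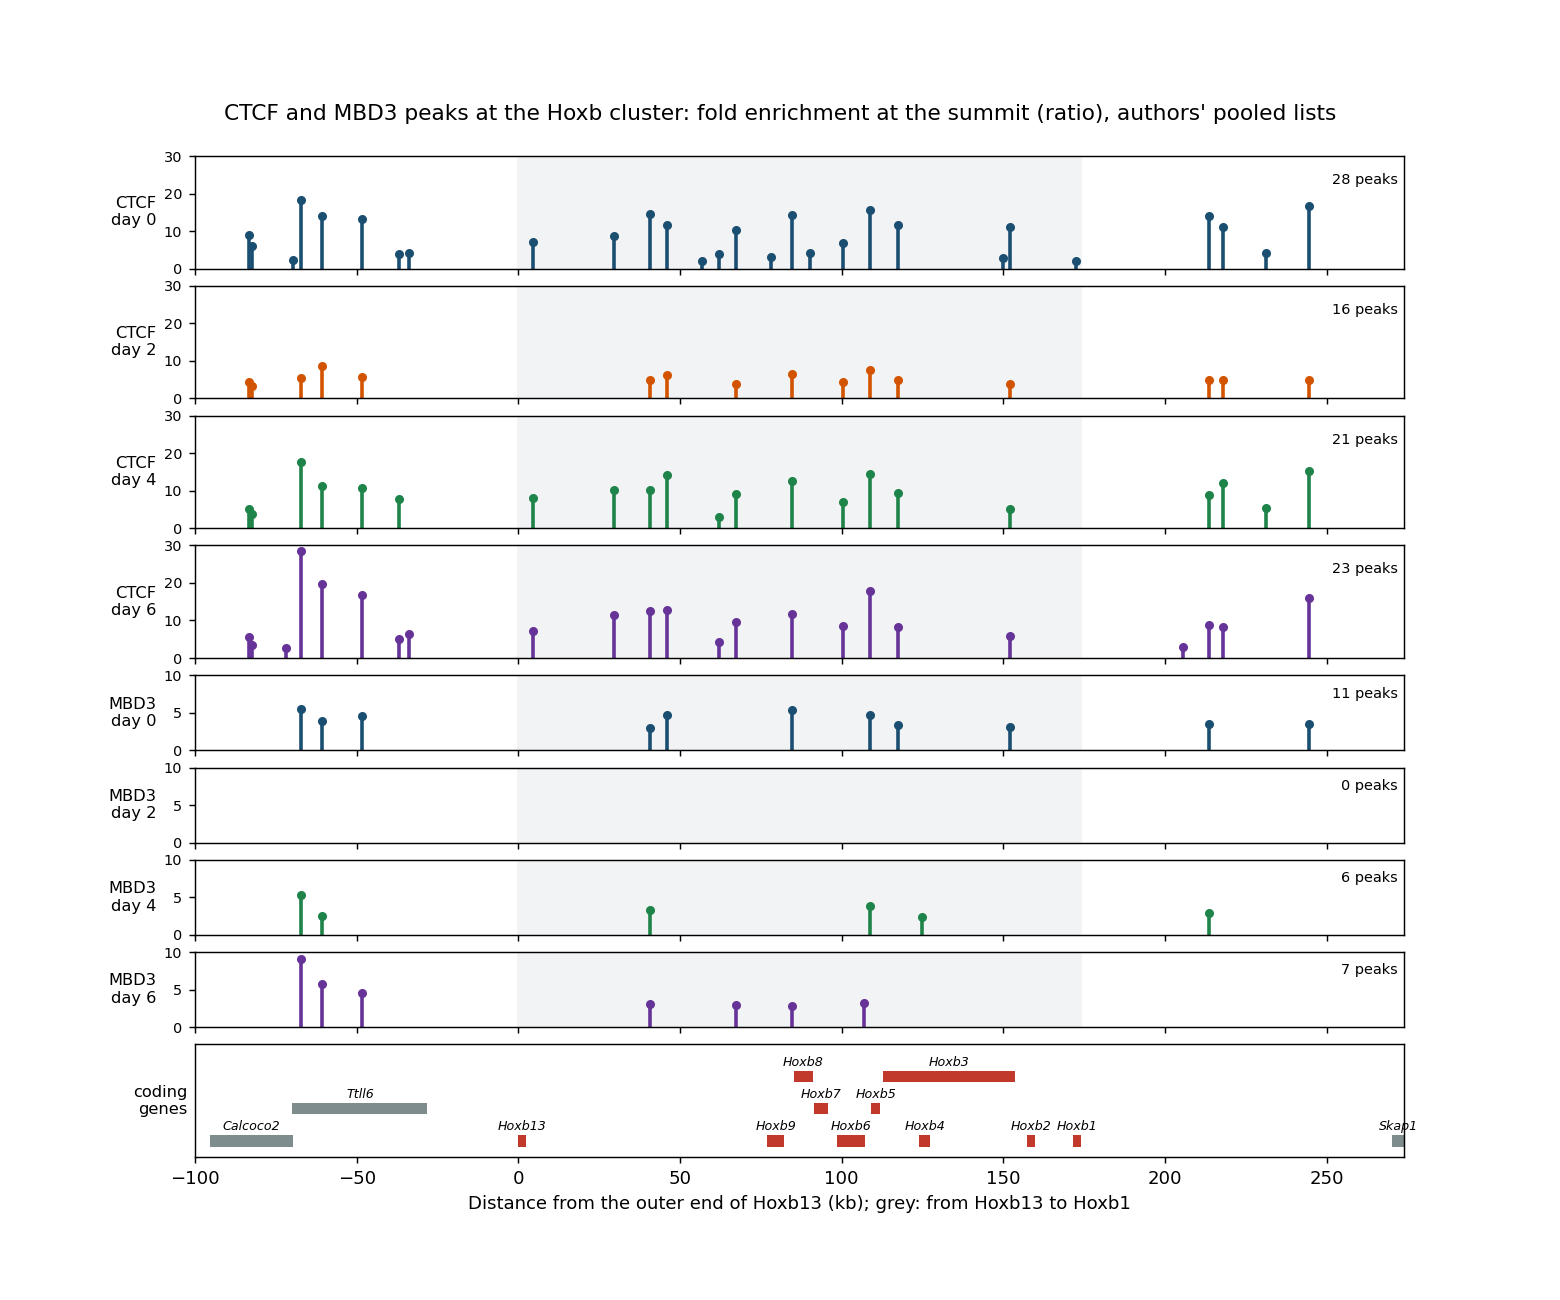
Fold enrichment at the summit (ratio, y axis) of every CTCF and MBD3 peak by day, against distance from the outer end of Hoxb13 (kb, x axis), with coding genes below and the cluster in grey. The 16 CTCF peaks of day 2 are the sites found on all 4 days, and MBD3 shows 11, 0, 6 and 7 peaks on days 0, 2, 4 and 6.

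CTCF sites of day 0 only were weaker on that day than sites found on all 4 days. The fold enrichment given by the authors compares the fragments over a summit with the background expected there. On day 0 it was 6.03 to 18.2 (median 12.4) at the 16 sites of all 4 days, from 65 to 330 fragments. It was 3.77 to 8.81 at the 4 sites missing on day 2 alone, which overlap the 16. The 6 sites of day 0 only had folds of 1.89 to 4.15 from 28 to 38 fragments and did not overlap the 16. The classes rest on which lists called a peak, and weak peaks are called less often. The difference is thus partly set by the classes, and the same ranges over the genome are not given here. The strongest of the 6, at 90.3 kb, was above only 25.5% of the whole day 0 list. With all CTCF lists shortened to the 28137 peaks of highest -log10 q, the length of the day 2 list, 18 sites of the window were found on day 0 and 0 on day 0 only.

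The spacer between Hoxb13 and Hoxb9 held 7 of the 16 CTCF sites of the cluster. The one nearest to Hoxb13, at 4.4 kb and 2146 bp past the gene, had CTCF folds of 6.99, 8.01 and 7.21 on days 0, 4 and 6, from 69, 51 and 54 fragments. The 29.7 kb site had folds of 8.81, 10.2 and 11.4 on those days, and the 61.9 kb site, inside the noncoding gene Gm53, had 3.77, 3.10 and 4.15. These 3 sites had no CTCF peak on day 2 and no MBD3 peak on any day. The 56.8 kb site was found on day 0 only, with a fold of 2.11 and 30 fragments.

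The other 3 spacer sites carried CTCF every day and MBD3 on some days. At the 40.8 kb site (chromosome 11, 96234929 to 96235357) the CTCF fold was 14.6, 4.82, 10.2 and 12.6 on days 0, 2, 4 and 6, from 240, 127, 140 and 195 fragments. Its MBD3 folds were 2.97, 3.30 and 3.15 on days 0, 4 and 6, from 28, 45 and 35 fragments. It is the one site inside the cluster with MBD3 on 3 days, and its 3 MBD3 folds lie within each other's 95% counting intervals (2.01 to 4.24, 2.43 to 4.39 and 2.22 to 4.35). At the 46.1 kb site the CTCF fold was 11.6, 6.36, 14.3 and 12.9, and MBD3 was found on day 0 alone, with a fold of 4.77 and 34 fragments. The 67.4 kb site, inside Gm53 and 9594 bp from Hoxb9, had CTCF folds of 10.2, 3.79, 9.05 and 9.58. It was the one CTCF site of the window without MBD3 on day 0 and with it later, on day 6, with a fold of 3.02 and 31 fragments.

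Among Hoxb9, Hoxb8, Hoxb7, Hoxb6 and Hoxb5, genes of the trunk and neck region, CTCF on all 4 days was within 1 kb of an outer end of Hoxb8 and Hoxb5. The 84.6 kb site lies between Hoxb9 and Hoxb8, 445 bp from Hoxb8 (96278684 to 96279142), and had CTCF folds of 14.4, 6.46, 12.6 and 11.6 on days 0, 2, 4 and 6. MBD3 was there on day 0 with a fold of 5.39 and on day 6 with a fold of 2.79. Both MBD3 peaks had 28 fragments, on backgrounds of 4.39 and 9.40 fragments, so the lower fold of day 6 came with a higher background and not with fewer fragments. The 95% counting intervals of these folds, 3.64 to 7.70 and 1.88 to 3.99, overlap. Weak CTCF peaks of day 0 only lay inside Hoxb9 (78.0 kb, fold 3.03) and inside Hoxb8 (90.3 kb, fold 4.15). The 100.4 kb site, inside Hoxb6, had CTCF folds of 6.82, 4.31, 6.97 and 8.60. It was the only site of all 4 days inside the cluster without MBD3 on any day.

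The 108.9 kb site, 253 bp from Hoxb5 (96303048 to 96303433), had the highest CTCF fold of the cluster on each day, with 15.5, 7.44, 14.4 and 17.8 from 227, 153, 183 and 230 fragments. The next folds lay within the 95% counting interval of the Hoxb5 site on 3 days. These were 14.6 at 40.8 kb on day 0 (interval 13.6 to 17.7), 6.46 at 84.6 kb on day 2 (6.32 to 8.71) and 14.3 at 46.1 kb on day 4 (12.4 to 16.7). MBD3 was found at the Hoxb5 site on days 0 and 4, with folds of 4.64 and 3.80 from 33 and 49 fragments, and not on day 6. The CTCF fold of this site was highest on day 6, but its interval (15.6 to 20.3) overlaps those of days 0 and 4. This site also lies inside Hoxb5os, a noncoding gene that the table names as opposite to Hoxb5.

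Towards the hindbrain genes the sites of all 4 days lay further apart than around Hoxb5, but the longest gap between them surrounds Hoxb13. At 117.4 kb, inside the long Hoxb3 annotation and between Hoxb5 and Hoxb4, the CTCF fold was 11.7, 4.94, 9.40 and 8.28 on days 0, 2, 4 and 6. At 151.9 kb, near the other end of Hoxb3, it was 11.1, 3.93, 5.14 and 5.79, from 244, 133, 86 and 95 fragments. Both carried MBD3 on day 0 alone, with folds of 3.41 and 3.07. Weak CTCF peaks, at 149.9 kb inside Hoxb3 (fold 2.82) and at 172.5 kb inside Hoxb1 (fold 1.89), were found on day 0 only. The Hoxb1 peak had a -log10 q of 1.49, close to the lowest of its list, 1.30.

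The sites of all 4 days were spaced by a median of 15.2 kb, with 3 long gaps. The longest, 89.3 kb from -48.5 to 40.8 kb, surrounds Hoxb13. It held 4 sites found on some days, namely -36.9, -33.7, 4.4 and 29.7 kb. The -36.9, 4.4 and 29.7 kb sites were missing on day 2 alone, so the length of this gap depends on the day 2 list. The spacing of such sites over the genome is not given here. The next, 61.7 kb from 151.9 to 213.6 kb, contains Hoxb2 and Hoxb1, and the third, 34.5 kb from 117.4 to 151.9 kb, contains Hoxb4. At the 16 sites the CTCF summits of the 4 days lay within 7 to 40 bp of each other (median 12.0 bp).

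On the flank beyond Hoxb13, Ttll6 held 3 sites of all 4 days that carried MBD3. The -67.2 kb site had the highest folds of the window on days 0, 4 and 6. Its CTCF folds were 18.2, 5.53, 17.6 and 28.4 on days 0, 2, 4 and 6. Its MBD3 folds were 5.50, 5.30 and 9.13 on days 0, 4 and 6. The next CTCF folds, 16.7 on day 0 and 15.3 on day 4, both at 244.6 kb, lay within its 95% counting intervals. These were 15.1 to 21.7 and 13.9 to 22.0. The next MBD3 folds of those days, 5.39 at 84.6 kb and 3.80 at 108.9 kb, also did (3.50 to 8.28 and 3.44 to 7.84). On day 6 the next folds, 19.6 and 5.82 at -60.6 kb, lay below its intervals. The start-site peak at -60.6 kb had CTCF folds of 13.9, 8.59, 11.3 and 19.6, from 330, 202, 211 and 314 fragments, and MBD3 folds of 3.94, 2.58 and 5.82 on days 0, 4 and 6. The -48.5 kb site had CTCF folds of 13.1, 5.57, 10.7 and 16.7 and MBD3 folds of 4.52 and 4.50 on days 0 and 6. All 3 sites had their highest CTCF fold on day 6.

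The other sites of this flank had no MBD3 on any day. Inside Calcoco2, a gene of an autophagy receptor family, the -83.2 kb site had CTCF folds of 8.93, 4.37, 5.23 and 5.73, and the -82.4 kb site had 6.03, 3.18, 3.81 and 3.51. Inside Ttll6 the -36.9 kb site had folds of 3.93, 7.67 and 5.19 on days 0, 4 and 6, and the -33.7 kb site had 4.27 and 6.53 on days 0 and 6. Single-day peaks lay at -69.6 kb (day 0, fold 2.25) and -71.8 kb (day 6, fold 2.58 from 13 fragments). The next CTCF site lies 0.5 kb outside the window on this side, with folds of 18.5, 9.26, 14.3 and 18.1, and is not counted here.

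The flank beyond Hoxb1 has no coding gene until Skap1, an adaptor gene of T cells. Its first site of all 4 days, at 213.6 kb, had CTCF folds of 13.9, 4.84, 8.84 and 8.81 and MBD3 folds of 3.55 and 2.98 on days 0 and 4. The 217.9 kb site had CTCF folds of 11.2, 4.90, 12.0 and 8.36 and no MBD3. The 244.6 kb site had 16.7, 4.98, 15.3 and 15.9, with MBD3 on day 0 alone (fold 3.51). Weaker peaks were at 205.7 kb (day 6, fold 2.99) and 231.1 kb (day 0, fold 4.06, and day 4, fold 5.42). On this side the next site lies 19.4 kb outside the window.

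At the sites of all 4 days the CTCF folds were lower on day 2 than on the other days. Day 2 had the lowest fold of the 4 days at 16 of the 16 sites of all 4 days, as it had at 84.4% of such sites in the genome. The median fold of the 16 was 12.4, 4.92, 10.4 and 10.6 on days 0, 2, 4 and 6, beside 9.87, 5.66, 10.4 and 11.2 over all sites of 4 days. The 95% counting interval of the day 2 fold lay below that of day 0 at 15 of 16 sites, below that of day 4 at 11 and below that of day 6 at 13, where 57.0%, 58.8% and 65.0% of such sites in the genome did so. These intervals cover counting error only, and fragments amplified by PCR are not independent molecules.

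At the 16 sites both parts of the fold moved on day 2. The median number of fragments at the 16 sites was 179.5, 98.0, 105.5 and 144.0 on days 0, 2, 4 and 6, and the median expected background was 14.6, 19.5, 10.2 and 12.2 fragments. Divided by the genome-wide background level of each list (2.87, 2.67, 1.83 and 1.87 fragments), the fragments were 62.5, 36.7, 57.7 and 77.0 and the background was 5.09, 7.30, 5.59 and 6.55. Over the sites of all 4 days in the genome, these medians were 35.2, 21.3, 39.3 and 44.9 for fragments. For the background they were 3.39, 3.51, 3.31 and 3.61. Fragments on this scale were lowest on day 2 at 14 of 16 sites, as at 91.7% of such sites in the genome. The background on this scale was highest on day 2 at 9 of 16, against 30.1% in the genome. The part of antibody yield or input in this difference was not tested.

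**Figure D2:**
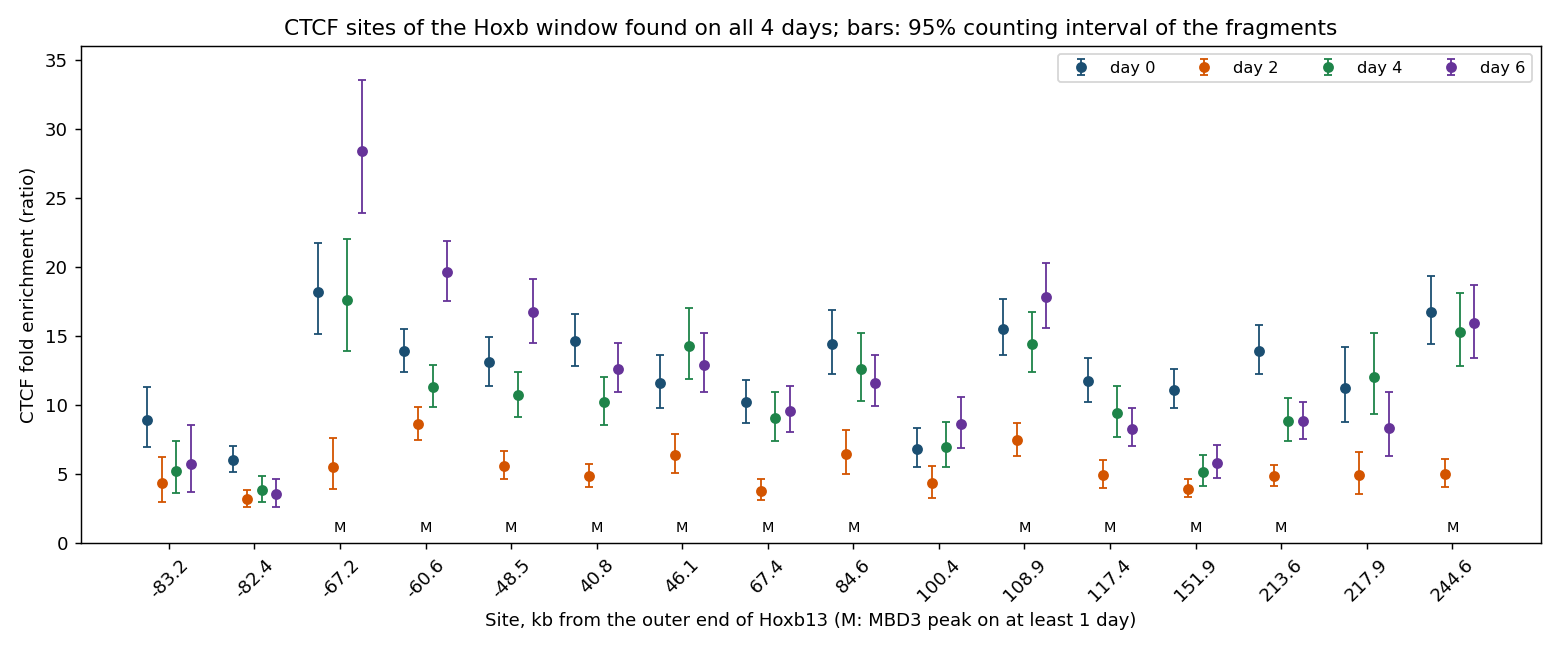
CTCF fold enrichment (ratio, y axis) at the 16 sites found on all 4 days, by position (kb from the outer end of Hoxb13, x axis) and day (colour), with bars for the 95% counting interval and M under sites with MBD3 on at least 1 day. Day 2 is the lowest point at all 16 sites, and day 6 is the highest at the 3 Ttll6 sites (-67.2, -60.6 and -48.5 kb).

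Day 6 was also set beside day 0. The day 6 interval lay above that of day 0 at 2 of 16 sites, both in Ttll6 (-67.2 and -60.6 kb), where 21.2% of the sites of all 4 days in the genome did so. It lay below that of day 0 at 4 of 16, against 11.2% in the genome. Of these 4, 1 is in Calcoco2 (-82.4 kb) and the others are at 117.4 and 151.9 kb inside Hoxb3 and at 213.6 kb beyond Hoxb1. At the other 10 sites the intervals overlapped. In the window the highest fold fell on day 0 at 9 of 16 sites, on day 4 at 2 and on day 6 at 5, while in the genome these shares were 30.1%, 28.7% and 40.5%.

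MBD3 in the window lay mostly in CTCF peaks, and on day 0 mostly in strong ones. It had 11, 0, 6 and 7 peaks on days 0, 2, 4 and 6. Of these, 11 of 11, 5 of 6 and 6 of 7 lay in a CTCF peak of the same day on days 0, 4 and 6, beside 88.9%, 84.3% and 91.8% of the whole MBD3 lists (53.7% on day 2). Read the other way, MBD3 was on 11 of 28 CTCF peaks of day 0 (39.3%), 0 of 16 of day 2, 5 of 21 of day 4 (23.8%) and 6 of 23 of day 6 (26.1%). Over the whole CTCF lists the shares were 19.5%, 3.80%, 20.6% and 26.1% on days 0, 2, 4 and 6.

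The day 0 share was the furthest above its list, and CTCF strength is given beside it. CTCF peaks in the same deciles of fold as the members had MBD3 in 27.9%, 1.64%, 21.3% and 27.0% of cases on days 0, 2, 4 and 6, which would equal 7.81, 0.262, 4.46 and 6.21 peaks. On day 0 the CTCF fold was 11.1 to 18.2 (median 13.9) with MBD3 and 1.89 to 11.2 (median 4.15) without. The ranges met only at 151.9 kb (11.1, with MBD3) and 217.9 kb (11.2, without). All 10 CTCF peaks of the window in the top 2 deciles of the day 0 list had MBD3, beside 59.6% of such peaks in the list, and 1 of the 18 others had it, beside 9.44%.

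This separation was less clear later. On day 4 the CTCF fold was 8.84 to 17.6 with MBD3 and 3.10 to 15.3 without, and on day 6 it was 9.58 to 28.4 with MBD3 and 2.58 to 17.8 without. In the top 2 deciles, 2 of 4 CTCF peaks had MBD3 on day 4 (54.3% in the list) and 3 of 5 on day 6 (72.5% in the list). In the lower deciles, 3 of 17 had it on day 4 (12.1% in the list) and 3 of 18 on day 6 (14.5% in the list). The median MBD3 fold in the window was 3.94, 3.14 and 3.18 on days 0, 4 and 6, beside 4.07, 3.85 and 4.58 in the lists. On day 2 the MBD3 list was short, with 1991 peaks against 9006 to 10875 on the other days, and its summit nearest to Hoxb13 was 317801 bp from the gene. With the other MBD3 lists shortened to 1991 peaks by -log10 q, 0, 0 and 2 CTCF peaks of the window had MBD3 on days 0, 4 and 6, so the absence on day 2 cannot be told apart from the length of the list. With a -log10 q of 10 or more, the counts were 5, 1 and 3.

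**Figure D3:**
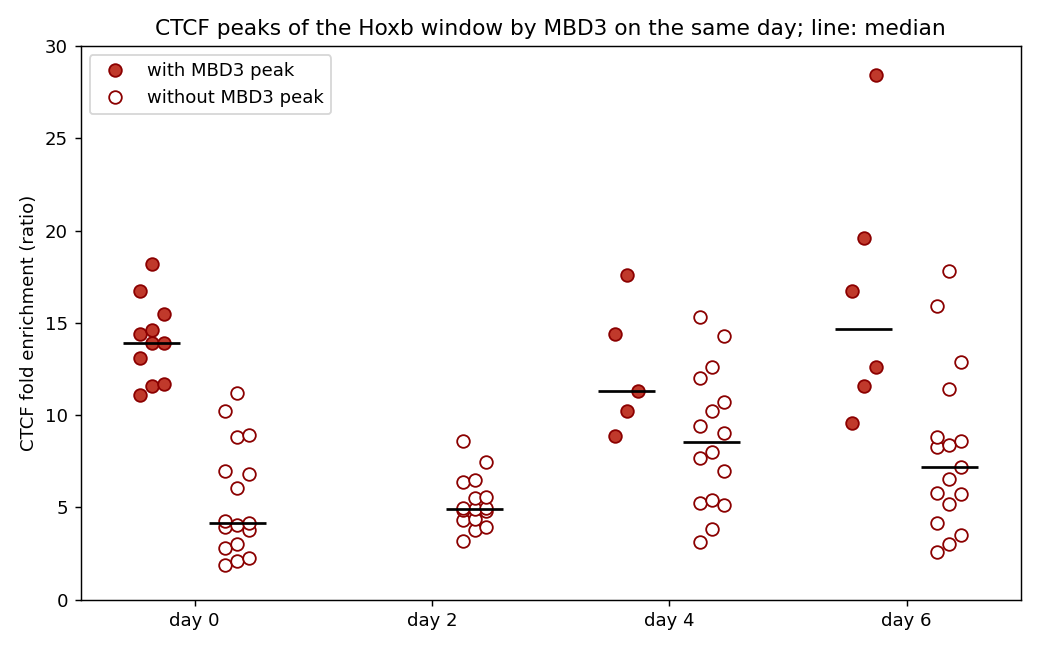
CTCF fold enrichment (ratio, y axis) of each CTCF peak of the window by day (x axis), with filled points for peaks that had an MBD3 peak on the same day, open points for the rest and lines for medians. On day 0 the filled points run from 11.1 to 18.2 and the open ones from 1.89 to 11.2, while on days 4 and 6 they overlap widely.

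Of the 16 sites of all 4 days, 12 (75.0%) had MBD3 on at least 1 day, beside 55.1% of such sites in the genome, and of the 14 other CTCF sites 0 had, beside 6.09%. With a -log10 q of 10 or more, 6 of 15 sites of all 4 days had MBD3 (40.0%, beside 33.3% in the genome), and with lists of equal length 2 of 14 had (14.3%, beside 14.6%). The higher share in the window was thus not found at equal list lengths. MBD3 on days 0, 4 and 6 was found at 3 sites (-67.2, -60.6 and 40.8 kb, 18.8%), against 14.6%. None had it on all 4 days or on day 2, against 2.76% and 3.50%. Days 0 and 6 were shared by -48.5 and 84.6 kb, and days 0 and 4 by 108.9 and 213.6 kb. Sites with MBD3 on day 0 alone were 46.1, 117.4, 151.9 and 244.6 kb. In the 22 cases of both proteins on the same day the summits were 1 to 28 bp apart (median 11.0 bp). The MBD3 fold was below the CTCF fold in all 22. The whole lists differ the same way, with median MBD3 folds of 4.07, 3.85 and 4.58 on days 0, 4 and 6. Their median CTCF folds were 6.67, 8.56 and 8.91. Summit distances over the whole lists are not given here, so neither value is a trait of the window alone. These lists cannot tell carry-over between libraries from the presence of both proteins.

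MBD3 without CTCF was found at 2 places, both inside Hox genes and both weak. At 107.0 kb, in Hoxb6, it was found on day 6 with a fold of 3.18 and 19 fragments. At 124.7 kb, in Hoxb4, it was found on day 4 with a fold of 2.32, 25 fragments and a -log10 q of 1.69.

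Counted by gene, 4 of the 10 Hoxb genes had CTCF within 1 kb of an outer end on day 0 and 2 on each of days 2, 4 and 6, where 34.3%, 15.6%, 20.3% and 21.0% of 21887 coding genes did. MBD3 was near 2, 0, 2 and 2 of them, where 10.0%, 2.13%, 9.86% and 7.96% of coding genes had it. Hoxb8 and Hoxb5 had CTCF on all 4 days. MBD3 was near Hoxb8 on days 0 and 6 and near Hoxb5 on days 0 and 4. Hoxb9 and Hoxb7 had CTCF on day 0 only, from the weak peaks at 78.0 and 90.3 kb. Hoxb6 had MBD3 alone on day 6 and Hoxb4 on day 4, while Hoxb13, Hoxb3, Hoxb2 and Hoxb1 had neither protein near an end on any day.

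Genes of the other Hox clusters with the most similar presence over the 8 lists were then sought. Hoxb5 had the same presence as Hoxa10 in 8 of 8 lists. Hoxb8 was equal to 4 genes, Hoxa5, Hoxa6, Hoxc10 and Hoxc5, in 7 of 8. Hoxb9 and Hoxb7 were equal to Hoxa9, Hoxd8 and Hoxd9 in all 8, and Hoxb6 to Hoxa4. Hoxb9, Hoxb7 and Hoxb6 each had a peak in 1 list, so these matches are mostly shared absence. Hoxb13, Hoxb3, Hoxb2 and Hoxb1, with a peak in 0 lists, were each equal to 18 genes in all 8. Hoxb4, with a peak in 1 list, was equal to 18 genes in 7 of 8.

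CTCF sites were about as dense inside the Hoxb cluster as in Hoxa and Hoxd, but its flanks held more. Hoxb had 16 sites in the cluster (9.20 per 100 kb), Hoxa 9 (8.53), Hoxc 7 (6.05) and Hoxd 9 (9.29). The flanks held 14 sites at Hoxb, 4 at Hoxa, 6 at Hoxc and 5 at Hoxd. With flanks, the share of sites found on all 4 days was 53.3% at Hoxb, 61.5% at Hoxa, 46.2% at Hoxc and 35.7% at Hoxd. Of 7268 windows of 373.9 kb along the chromosomes, 1.29% had 30 or more CTCF sites, and the median was 5.0. For MBD3 on day 0, 0.688% had 11 or more peaks, and the median was 1.0. No test was made between the clusters.

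**Figure D4:**
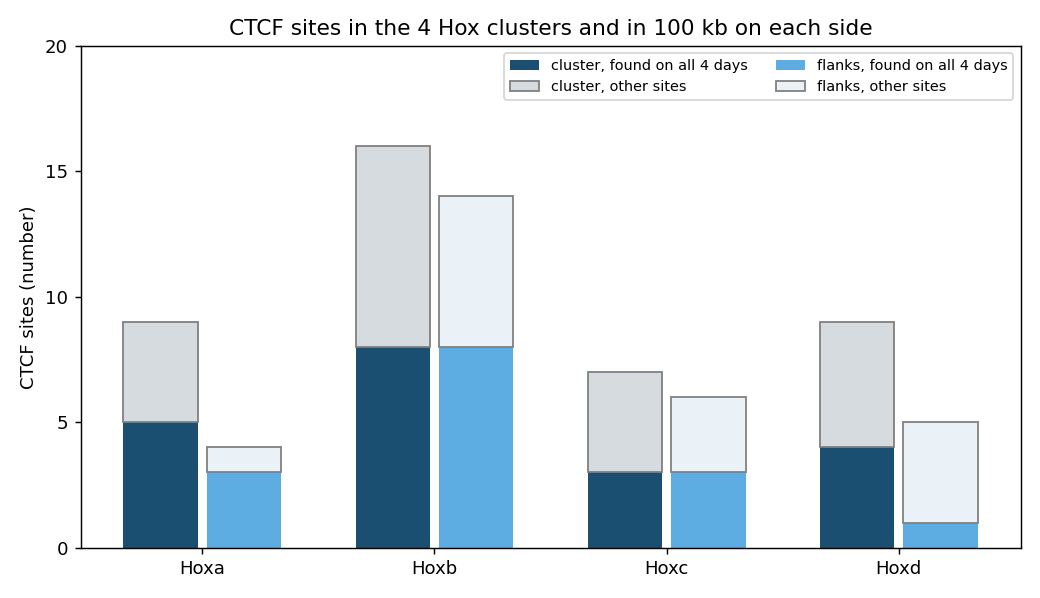
Number of CTCF sites (y axis) in each Hox cluster and in its flanks of 100 kb per side (x axis), with the sites found on all 4 days in the blue lower part of each bar. Hoxb has 16 sites in the cluster and 14 in the flanks, and 8 of each were found on all 4 days.

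By gene, CTCF was near 4, 3, 3 and 3 of 11 Hoxa genes on days 0, 2, 4 and 6, near 2 of 9 Hoxc genes on each day, and near 4, 1, 2 and 2 of 9 Hoxd genes. MBD3 was near 3, 0, 3 and 3 Hoxa genes, near 2, 0, 1 and 1 Hoxc genes and near no Hoxd gene. Among 9 genes of the homeodomain cofactors that bind DNA with Hox proteins (Pbx, Meis and Pknox), CTCF was near 4, 2, 3 and 3 and MBD3 near 1, 0, 0 and 0. Meis3 and Pknox2 had CTCF on all 4 days, and Pknox2 had MBD3 on day 0. Beside all these sets, CTCF was near 34.3%, 15.6%, 20.3% and 21.0% of all coding genes on days 0, 2, 4 and 6. MBD3 was near 10.0%, 2.13%, 9.86% and 7.96%.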

How the data were processed

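CTCF and MBD3 ChIP-seq and input libraries (36 samples, 12 groups of 3) were grouped from the labels. The build was mm10 and the tools were MACS2 2.1.2, Bowtie2 2.3.4, bedtools 2.25.0, SAMtools 1.9 and FastQC 0.11.7, per the submitters' processing notes. The authors deposited 8 peak lists, 1 per antibody and day, whose names show that the replicates were pooled. The lists give the authors' fold enrichment at the summit (a ratio), each peak's -log10 q and -log10 p, and the summit's offset. The score the authors deposited was not used.

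Rows of 1 interval with several summits were counted as 1 peak. Whole fragments over a summit and its expected background were recovered from fold and p to within 0.01%, for 99.8% to 100.0% of sampled peaks per list. On 938 summits simulated with the same relation of fold and p, 100.0% were right, which checks the arithmetic only. When the folds and p of these summits were mixed, 6.82% still had a match. The lowest common background of a list is its only measure of depth, since library totals were not used here. Exact Poisson 95% intervals cover counting error only. Overlaps and merged sites were equal to those of bedtools 2.31.1 on 2000 simulated peaks. Genes are from a RefSeq table (GRCm38.p6) that gives outer ends without strand or exons, and all 10 Hoxb symbols matched. Motif letters were searched in promoter windows and not at summits, since no genome was used.

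Every site of the window is named by its genes, and likeness between Hox genes is the number of the 8 lists with equal presence, with up to 3 genes named (Hoxc5 was added after its values were seen). The members and lists were chosen with earlier results of these data known. Results were recomputed with equal list lengths, a minimum -log10 q of 10, other overlap rules, other flanks and other gene windows. Analyses ran in Python 3.11.15 with scipy 1.17.1, pandas 2.3.3, numpy 2.4.6 and matplotlib 3.10.9.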

Additional observations from a re-analysis of the deposited data

How the results depend on the processing

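Of 117 counts recomputed under the alternatives, 79 stayed within 1.5 times of the reported count and 38 moved further. None moved when summits within 100 bp or an overlap of 0.5 of the shorter peak counted as shared, when summits were kept separate, or, an alternative chosen after seeing the data, when the day 2 list was left out (20 sites on days 0, 4 and 6).

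With a -log10 q of 10 or more, 2 CTCF sites were found on day 0 only. CTCF peaks with MBD3 then numbered 5, 1 and 3 on days 0, 4 and 6, 6 sites of all 4 days had MBD3 on some day, and 1 and 0 Hoxb genes had MBD3 near an end on days 4 and 6.

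With lists of equal length (28137 CTCF and 1991 MBD3 peaks), the window had 18 CTCF sites on day 0 and 0 found on day 0 only. CTCF peaks with MBD3 were 0, 0 and 2 on days 0, 4 and 6, the last at -67.2 and -60.6 kb, so 2 sites of all 4 days had MBD3 on some day. For day 0, CTCF was near 2 Hoxb genes. MBD3 was near 0, 0 and 0 of them on days 0, 4 and 6.

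In the cluster alone there were 16 CTCF sites, with 16, 8, 11 and 11 on days 0, 2, 4 and 6 and 8 on all 4 days. CTCF peaks with MBD3 were 6, 2 and 3 on days 0, 4 and 6, and 7 sites of all 4 days had MBD3 on some day. With flanks of 50 kb, 3 CTCF peaks had MBD3 on day 4.

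With gene ends widened to 5 kb, CTCF was near 8, 6, 7 and 7 Hoxb genes on days 0, 2, 4 and 6, and MBD3 near 5, 4 and 4 on days 0, 4 and 6. With summits anywhere in a gene or within 1 kb of it, CTCF was near 4, 4 and 4 on days 2, 4 and 6. Except for the changed windows and list lengths, whose construction sets the counts, the cause was not tested.

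No paired analysis was possible because each list pools its replicates, and leaving out a replicate was not run for the same reason. The weakest peaks of the lists had as few as 8 to 10 fragments, but the limit depends on the local background. At 172.5 kb on day 0, 32 CTCF fragments on a background of 16.4 reached a -log10 q of only 1.49. A place without a peak can thus hold more than 8 to 10 fragments, and binding below the limit has no value here.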

Other observations

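Among 11 regulators of Hox genes, CTCF was within 1 kb of an outer end of 5, 1, 2 and 1 on days 0, 2, 4 and 6, and MBD3 of 4, 0, 2 and 1. Of all coding genes, 34.3%, 15.6%, 20.3% and 21.0% had CTCF there on those days. For MBD3 the shares were 10.0%, 2.13%, 9.86% and 7.96%. With 11 genes these counts are a description only, and no test was made. Rara, a retinoic acid receptor gene, had CTCF on all 4 days and MBD3 on day 0. Ezh2, the gene of a Polycomb methyltransferase, had MBD3 on days 0, 4 and 6 and no CTCF, and Eed, of the same complex, had MBD3 on days 0 and 4 and no CTCF. Rarb, Suz12 and Cdx4 had neither protein near an end on any day.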
